A study of Mus musculus with 8 samples.

Results

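The comparison set wild type mouse marrow transduced with JAK2V617F against wild type marrow transduced with unmutated JAK2 (JAK2WT), in droplet single-cell RNA sequencing. Its members were all cell barcodes of these 2 libraries with at least 500 genes, at least 1000 UMIs (unique molecular identifiers, which count captured transcripts) and under 10% mitochondrial UMIs. They numbered 11589 of the 22078 such cells in the series, 7987 with JAK2WT and 3602 with JAK2V617F. The donors were 8-week-old wild type mice whose marrow was harvested 48 hours before transplantation and carried one of the 2 retroviruses, marked by green fluorescent protein (GFP). The recipients were female B6.SJL mice aged 8 to 10 weeks, given 10.5 Gy, and their marrow was taken at day 112. Marrow of 3 mice per group was tagged and passed over magnetic columns against the lineage markers CD3, B220, TER119, GR1 and CD11b. It was then pooled and sorted as viable, lineage-negative cells with and without GFP. Both groups thus share the wild type genotype, the irradiation, the retroviral transduction and the depletion, and both hold residual recipient cells and untransduced cells. Each group is 1 pool and 1 library, so the differences could not be checked against replicates or tested. A range given in parentheses is a 95% interval of the counting error alone.

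JAK2 is the kinase through which the receptors for erythropoietin, thrombopoietin and several myeloid cytokines signal. It phosphorylates STAT transcription factors, which move to the nucleus and switch on survival kinases such as Pim1, cyclins, and the feedback inhibitors of the SOCS family. The V617F substitution leaves the kinase active without cytokine, and it is the most frequent driver of polycythaemia vera, essential thrombocythaemia and primary myelofibrosis.

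The JAK2WT library held 12376 barcodes and 72458173 UMIs, and the JAK2V617F library 5907 barcodes and 59165347 UMIs. After removal of 791 and 170 likely doublets, 7196 and 3432 cells remained, at a median depth of 4424.5 and 13250 UMIs. The 2 libraries shared 10 barcodes among the cells that passed, 0.278% of the smaller set. Jak2 measured 40.9 and 41.1 CPM (UMIs per 1e+06 UMIs) over all kept cells, and the 3' reads do not tell mutant from normal Jak2 RNA. Gli1, the hedgehog transcription factor that the series as a whole is about, had 0 and 2 UMIs. GFP, the mark of transduction, was found in 40 of 7196 cells (0.556%) with JAK2WT and in 90 of 3432 (2.62%) with JAK2V617F. With each cell thinned to 1000 UMIs these became 10 (0.139%) and 8 (0.233%). Mesenchymal stromal cells, which the transplant does not supply, had it in 0 of 31 and 0 of 41. Transduced cells could therefore not be picked out, and cells with and without the virus are pooled in every value.

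The make-up of the sorted marrow differed widely between the libraries. Erythroid cells, named by globin, Car1 and red cell membrane genes, made up 62 cells with JAK2WT (0.862%, 0.661 to 1.10) and 1256 with JAK2V617F (36.6%, 35.0 to 38.2), a 42.5-fold larger share (33.0 to 54.6). Haematopoietic stem and multipotent progenitor cells (HSC/MPP) went from 335 cells (4.66%) to 668 (19.5%), a ratio of 4.18. Mast cells and basophils, which share granule proteases and the IgE receptor, went from 67 (0.931%) to 141 (4.11%), a ratio of 4.41. Granulocyte-monocyte progenitors (GMP) went from 355 (4.93%) to 527 (15.4%), a ratio of 3.11. Cluster 10 made up 69.6% of GMP with JAK2WT and 62.0% with JAK2V617F. Its 10 leading genes held 5 GMP markers but were headed by the eosinophil granule genes Prg2 and Prg3, so the GMP class may include eosinophil precursors. The intervals of the shares were separate between the libraries for these classes, as they were for every other named class.

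Lymphoid and dendritic cells lay on the other side. T cells made up 17.4% with JAK2WT and 0.699% with JAK2V617F, B lineage cells 30.1% and 0.233%, and plasma cells 5.45% and 0.991%. Plasmacytoid dendritic cells, the main interferon producers, were 439 cells (6.10%) against 0 of 3432, which allows a share of up to 0.107%. Conventional dendritic cells were 4.61% and 0.495%. Natural killer and innate lymphoid cells (NK/ILC) differed from the other lymphoid classes, with 2.56% and 6.26%.

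A library's shares sum to the whole, so part of these ratios depends on what else was sorted. Counted among erythroid, HSC/MPP, GMP, mast, monocyte and neutrophil cells only, 1976 and 2851 cells, the ratio was 14.04 for erythroid cells, 1.46 for mast cells and basophils, 1.38 for HSC/MPP and 1.03 for GMP. On that base the monocyte ratio was 0.0415. Monocytes, at 869 and 52 cells of all kept cells (12.1% and 1.51%, a ratio of 0.125), had an unsettled class border, and their ratio lay between 0.0801 and 0.840 over the other clusterings and cell filters. Over these settings the ratio was 1.72 to 3.11 for GMP and 1.51 to 3.51 for neutrophils, whereas it was 30.5 to 42.6 for erythroid cells. Neutrophils, at 4.00% and 6.03%, were a 1.51-fold larger share of all kept cells but 0.498-fold on the myeloid base. The proportion in which the GFP-positive and GFP-negative sorts were loaded is not given in the sources used here, so the sort and the transduction cannot be told apart as sources of a difference in shares.

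**Figure D1:**
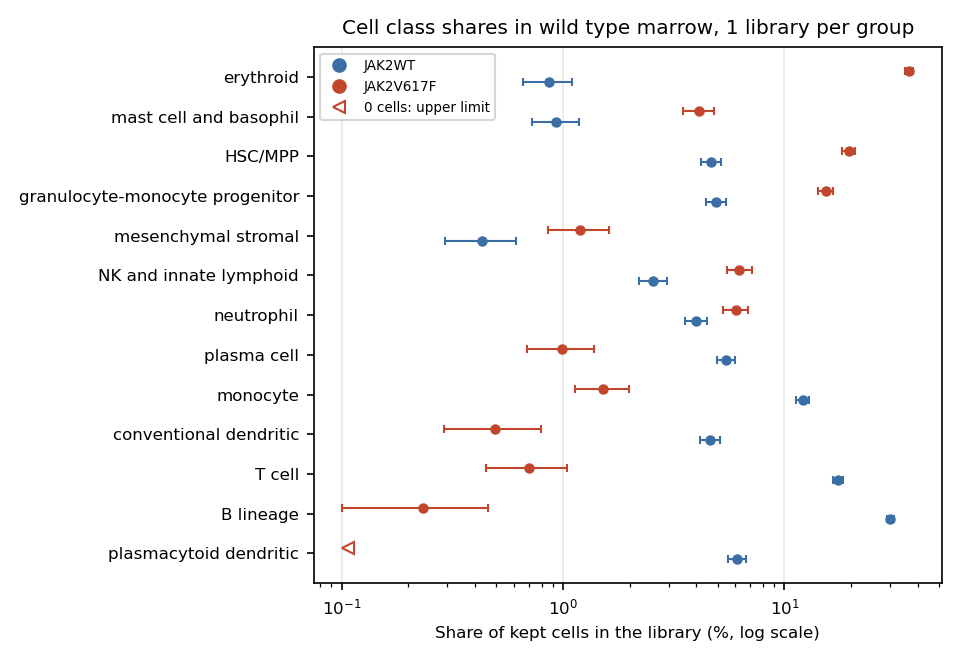
Share of kept cells (percent, log axis) of each named class with at least 50 cells over both libraries. Points are the 2 libraries and bars are exact 95% binomial intervals. Erythroid cells stand at 0.862% and 36.6%, and the open triangle marks the upper limit of 0.107% for plasmacytoid dendritic cells with JAK2V617F.

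Expression was then compared inside each class that held at least 40 kept cells in both libraries, which 7 classes did. A gene counted as measured with at least 50 CPM and 20 UMIs in the higher library, and as higher or lower when log2 of JAK2V617F over JAK2WT, with 10 CPM added to both, reached 1 or -1. Genes outside the 5 highest and 5 lowest of a class, the 8 highest and lowest over classes and the ends of the gene lists were chosen for description after their values were seen. HSC/MPP had the fewest genes past this size. Of 3254 measured genes, 12 were higher (0.369%) and 17 lower (0.522%), and 85.0% of the genes lay within 0.5 of 0. In GMP, 29 of 3062 were higher (0.947%) and 18 lower (0.588%), and in monocytes 52 of 3194 were higher (1.63%) and 49 lower (1.53%). Erythroid cells had 57 of 3193 higher (1.79%) and 17 lower (0.532%). NK/ILC had 144 of 3686 higher (3.91%) and 122 lower (3.31%), and mast cells and basophils had 125 of 3281 higher (3.81%) and 34 lower (1.04%). Neutrophils had 243 of 2661 higher (9.13%) and 486 lower (18.3%). The make-up of the neutrophil class differed as well: Fcnb- and Camp-rich cells of cluster 21 were 55.6% of the class with JAK2WT and 5.80% with JAK2V617F. In the Ltf- and Ngp-rich cells of cluster 24 alone, 105 of 2281 genes were higher (4.6%) and 73 lower (3.2%). Neutrophils are described by that cluster below, except that counts and ranges of single genes over classes use the whole neutrophil class. Centred on the class median, which was 0.16 in GMP and -0.40 in neutrophils, the higher and lower counts were 13 and 30 in GMP, 7 and 26 in HSC/MPP, and 416 and 141 in the whole neutrophil class. With totals that left out haemoglobin, immunoglobulin, mitochondrial and ribosomal protein genes they were 10 and 25 in HSC/MPP, 75 and 39 in erythroid cells, 152 and 86 in mast cells and basophils, and 200 and 893 in neutrophils. With each cell thinned to 1000 UMIs, the median of all genes was -0.48 in monocytes and 0.38 in erythroid cells, and the higher and lower counts were 33 and 517 and 359 and 10. With doublets kept, the neutrophil counts were 109 and 56.

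Across classes, 3400 genes were measured in at least 3, and of these 22 were higher (0.647%) and 17 lower (0.5%) in at least 3. Of 534 genes at least 2-fold higher in any class, 442 passed that size in 1 class, and of 641 lower in any, 581 did, with the whole neutrophil class counted. Among these genes, 28 were higher in one class and lower in another. Whether a gene's ratio differed between classes was not tested. With cluster 24 in place of all neutrophils, 23 genes were higher in at least 3 classes, 20 of them among the 22.

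Ifitm1 was higher in 6 classes, as was Ldha, and no gene was higher in more. It codes for an interferon-inducible membrane protein that restricts virus entry, and it lies on chromosome 7 (140967221 to 140969825, plus strand, mm10). In GMP it went from 40.6 CPM (36.2 to 45.5) with JAK2WT to 876.8 CPM (861.2 to 892.7) with JAK2V617F. In monocytes it went from 33.8 to 1328 CPM, in neutrophils of cluster 24 from 47.9 to 2032, and in NK/ILC from 33.2 to 138.4. HSC/MPP and mast cells already held the transcript with JAK2WT: HSC/MPP went from 391.8 to 1222 CPM and mast cells and basophils from 1109 to 3231. The log2 ratio was at least 1 in 6 of 6 classes where it was measured, from 1.53 to 6.14. The value of 6.14 is that of the whole neutrophil class, and cluster 24 alone stood at 5.14. Its neighbours on the chromosome differed by class. Ifitm3 stood at 1.58 in GMP, 2.38 in mast cells and basophils and 1.46 in neutrophils of cluster 24, but at 0.01 in HSC/MPP and -0.74 in NK/ILC. In neutrophils of cluster 24 the whole locus was higher, with Ifitm2 at 1.53 and Ifitm6 at 1.62.

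Ldha, which turns pyruvate into lactate, was higher in 6 of 7 classes, with log2 ratios from 0.76 in NK/ILC to 1.42 in monocytes. It lay just past the threshold in erythroid cells (1.0) and HSC/MPP (1.02). Its JAK2WT level was between 276.2 and 405.8 CPM in all 7 classes, and its JAK2V617F level between 493.7 and 1046 CPM. In the Gli1 knockout libraries of the series, with the same 2 transductions, JAK2V617F was the higher in each class. There the levels overlapped across classes, with JAK2WT at 661.7 CPM in GMP and JAK2V617F at 594.7 CPM in NK/ILC. Pkm and Eno1, which make pyruvate and its precursor, were each higher in 3 classes, with medians over classes of 1.08 and 0.84. The glycolysis list of 16 genes had a median above that of all measured genes in each class, at 0.34 in NK/ILC, 0.64 in erythroid cells, 0.70 in HSC/MPP, 0.81 in GMP, 0.86 in monocytes, 1.00 in mast cells and basophils and 1.18 in neutrophils of cluster 24. The medians of all measured genes lay between -0.04 and 0.16 there. Every measured member was above 0 in HSC/MPP (11 of 11), GMP (11 of 11), erythroid cells (9 of 9), monocytes (10 of 10) and cluster 24 (10 of 10). Members at least 2-fold higher were 1, 1, 3, 4 and 5 in these classes, and 7 of 14 in mast cells and basophils. In NK/ILC 8 of 12 were above 0 and 0 were at least 2-fold higher, with Pdk1, which holds pyruvate out of the mitochondrial cycle, at -0.89.

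Among targets of JAK-STAT signalling, the survival kinase gene Pim1 was higher in 4 classes. It was 32.6 and 164.3 CPM in erythroid cells (log2 2.03), 42.5 and 185.9 in GMP (1.90), and 77.2 and 239.7 in monocytes (1.52). HSC/MPP, at 181.3 and 276.3 CPM (0.58), and NK/ILC, at 393.1 and 372.2 (-0.08), had high levels in both libraries. Junb, an AP-1 subunit, was above 0 in all 7 classes (0.57 to 1.73), and so was the myeloid factor Cebpb (0.46 to 1.54). Both Cebpb and Junb were higher in 4 classes, and in cluster 24 alone Cebpb stood at 1.71 and Junb at 0.90. Of the 22 genes of the list, those measured numbered 6 to 14 per class, and their medians ran from 0.35 in monocytes to 1.03 in erythroid cells, with neutrophils taken as cluster 24 (0.53). The cyclin gene Ccnd2 lay below 0 in HSC/MPP (-0.67), GMP (-0.36) and monocytes (-0.76) and above it in erythroid cells (0.91) and mast cells and basophils (0.42). The feedback inhibitors Cish and Socs1 were measured in mast cells and basophils and in NK/ILC, and were at least 2-fold higher in the former.

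Further genes of the rule for the widest differences were Emilin2, a glycoprotein of the extracellular matrix, the lysosomal protease gene Ctsc, and Ccdc86. Emilin2 had log2 ratios of 0.66 to 2.93 over 6 classes, highest in the whole neutrophil class. Ctsc had ratios of 0.02 to 2.06 over 5, and Ccdc86 0.50 to 1.57 over 5. Fabp5, a fatty acid carrier, and Glipr2 were higher in 4 classes each, and Fabp5 was -0.74 in NK/ILC. The secreted iron-scavenging protein gene Lcn2 was higher in all 3 classes where it was measured, at 2.38 to 3.86, and the chemokine gene Ccl6 likewise, at 1.54 to 7.25. In cluster 24 alone Lcn2 stood at 0.71, Fabp5 at 0.37 and Pim1 at 0.41, below the values of the whole neutrophil class.

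Among the genes lower across classes, Jchain, the joining chain that plasma cells secrete with antibody, was lower in all 7 (-1.85 to -3.15). The whole neutrophil class stood at -1.85 and cluster 24 alone at -3.55. Jchain levels outside plasma cells were 58.2 to 1452 CPM with JAK2WT and 2.62 to 396.9 CPM with JAK2V617F. They moved with the plasma cell share of 5.45% and 0.991%, and the part of free RNA in them was not tested. Haemoglobin moved the other way: Hbb-bs in the 6 non-erythroid classes was 0.895 to 7.09 CPM with JAK2WT and 36.7 to 78.8 CPM with JAK2V617F, beside erythroid shares of 0.862% and 36.6%. Both Hbb-bs and Hbb-bt are among the 22 genes higher in at least 3 classes. Xist, the RNA of the inactive X chromosome, was also among the 17 lower genes. It was 2122 and 1073 CPM in HSC/MPP, 997.4 and 465.5 CPM in GMP and 1737 and 1513 CPM in stromal cells, and the labels used here give the sex of the recipients but not of the donors.

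Ddx17, an RNA helicase, was between -0.71 and -0.94 in all 7 classes, and Clk1, a kinase of splicing factors, between -0.37 and -1.11. The nuclear long noncoding RNA Malat1 (chromosome 19, 5795690 to 5802672) was 6216 and 2840 CPM in GMP (-1.13), 12695 and 6146 in HSC/MPP (-1.05), and lower than with JAK2WT in each of the 7 classes. The nuclear RNA Neat1 was above 0 in erythroid cells (0.38), monocytes (0.33) and the whole neutrophil class (0.63). It was below 0 in GMP (-0.08), HSC/MPP (-0.04), mast cells and basophils (-0.25) and NK/ILC (-0.36). Kcnq1ot1, another long noncoding RNA, lay between -0.45 and -2.02 in all 7 classes. Of the measured long noncoding genes, 2 of 22 were above 0 in HSC/MPP, 2 of 17 in GMP, 5 of 18 in monocytes and 9 of 23 in erythroid cells, with medians of -0.51, -0.69, -0.44 and -0.12. Lars2, the mitochondrial leucyl-tRNA synthetase, was lower in 4 classes (-0.37 to -1.47 over 7), Tcf4 stood at -0.77 to -1.20 over 5 and the growth factor receptor Igf1r at -0.36 to -1.26 over 5. Elane, neutrophil elastase, was lower in 5 classes and Clec12a, an inhibitory lectin of myeloid cells, in 4, while in cluster 24 alone they stood at -0.06 and -0.34. In the Gli1 knockout pair Elane was higher with JAK2V617F in HSC/MPP (175.4 and 212.1 CPM), NK/ILC (497.8 and 552.9) and erythroid cells (144.4 and 766.2). Clec12a was higher there in mast cells and basophils (151.5 and 202.5 CPM) and erythroid cells (12.6 and 27.3). Both were lower there in the remaining classes.

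**Figure D2:**
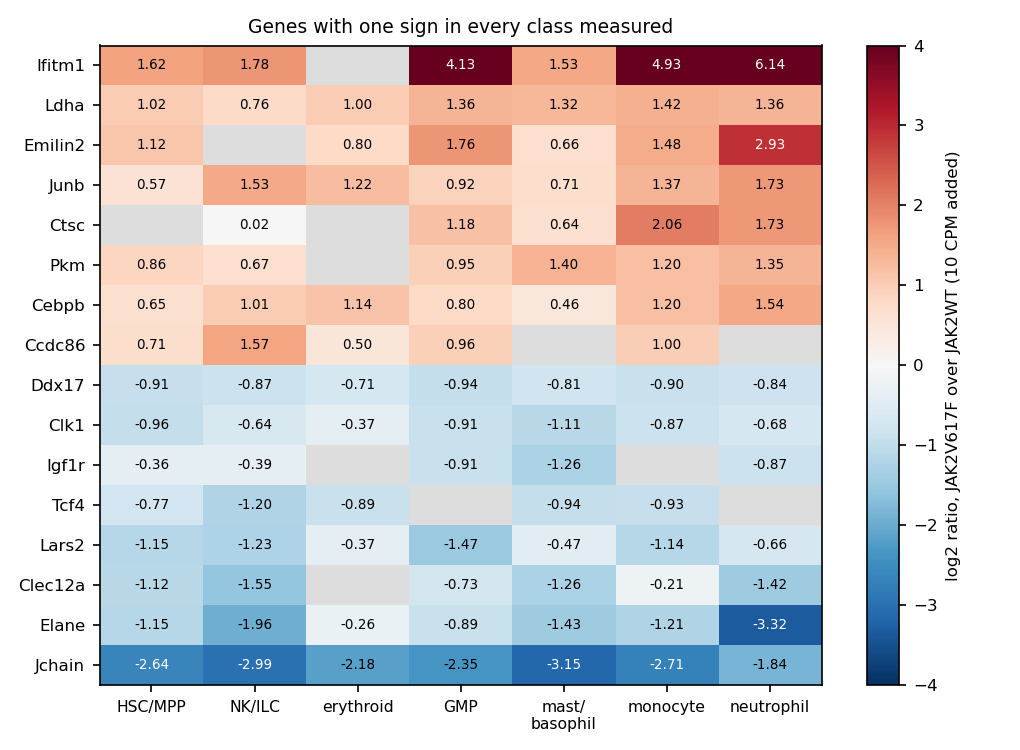
Log2 ratios (JAK2V617F over JAK2WT, 10 CPM added) of the 8 highest and 8 lowest genes among those measured in at least 5 classes with one sign throughout. Rows are genes, columns the 7 classes with neutrophils as the whole class, and grey cells were not measured. Ldha spans 0.76 to 1.42, Ddx17 spans -0.94 to -0.71, and Ifitm1 spans 1.53 to 6.14.

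Some gene families lay mostly on one side of 0 by small amounts, with differences between classes. Proteasome subunit genes were above 0 in 33 of 38 in HSC/MPP (median 0.24), 37 of 41 in GMP (0.35), 34 of 38 in monocytes (0.34), 32 of 38 in mast cells and basophils (0.39) and 35 of 41 in erythroid cells (0.27), with all genes between 0.03 and 0.16 there. Chaperonin and heat shock protein genes stood at 0.40, 0.64, 0.69, 0.38 and 0.19 in the same order, and aminoacyl-tRNA synthetase genes at 0.32, 0.52, 0.42, 0.67 and 0.26. The ribosomal protein genes, 82 in each of these classes, had medians of -0.06, -0.15, -0.06, -0.14 and -0.18. In NK/ILC proteasome genes were above 0 in 21 of 39, chaperone genes in 10 of 16 and ribosomal protein genes in 49 of 82. Splicing factor genes of the Srsf family were near all genes, at 0.17 in HSC/MPP and 0.19 in GMP. Transcripts of the mitochondrial genome were above 0 in 0 of 11 in HSC/MPP, 0 of 12 in GMP, 0 of 11 in monocytes, 0 of 12 in NK/ILC, 1 of 12 in erythroid cells, 2 of 11 in mast cells and basophils (median -0.06) and 4 of 11 in cluster 24. Few members of these families passed 2-fold, and cluster 24 had chaperone genes at -0.12 and proteasome genes at 0.23.

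The promoters of the widely shared genes were read for TTCNNNGAA, the letters of the site to which STAT dimers bind, which reads the same on both strands. Of the 22 genes higher in at least 3 classes, 21 had a RefSeq window (GRCm38.p6, 250 bases before to 50 after a start), and 4 of them held the letters, or 19.05%. Among the genes measured in at least 3 classes 217 of 2721 held them (7.98%), and among all genes with a window 2582 of 27025 (9.55%). A gene with several windows was counted once, if any window held the letters. None of the 11 lower genes with a window did. The 4 genes were Ctsc, Dazap1, Emilin2 and Ifitm3, and the stretches around the letters are shown with the matched bases in capitals.
Ctsc, chromosome 7, 88277839 to 88277868, plus strand: agctttggcgTTCcttGAAaggcagaggtc
Dazap1, chromosome 10, 80264817 to 80264846, plus strand: aggactgcatTTCccaGAAggattagattc
Ifitm3, chromosome 7, 141010712 to 141010741, minus strand: aaaaggaaacTTCtgaGAAaccgaaactgc
The upstream window of Emilin2, whose first matched base lies at -85, and that of Ifitm1, which was higher in every class where it was measured and holds no match, are given for comparison. A second Emilin2 window holds no match, and the RefSeq start used for Ifitm1 lies inside the longer GENCODE gene given above.
Emilin2, chromosome 17, 71311012 to 71311261, minus strand: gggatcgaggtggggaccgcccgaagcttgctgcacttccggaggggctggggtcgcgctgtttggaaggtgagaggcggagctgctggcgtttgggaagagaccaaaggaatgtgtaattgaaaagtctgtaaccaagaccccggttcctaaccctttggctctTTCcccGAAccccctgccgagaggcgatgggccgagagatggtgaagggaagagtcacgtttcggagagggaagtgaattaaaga
Ifitm1, chromosome 7, 140967826 to 140968075, plus strand: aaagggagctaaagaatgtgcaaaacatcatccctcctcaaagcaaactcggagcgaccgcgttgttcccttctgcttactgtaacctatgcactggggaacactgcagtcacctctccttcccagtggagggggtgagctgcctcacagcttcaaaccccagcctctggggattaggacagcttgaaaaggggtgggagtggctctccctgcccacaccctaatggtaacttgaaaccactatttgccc
A match describes these letters in this window and no binding was measured, and most of the shared genes, Pim1, Junb, Ldha and Cebpb among them, have no match in theirs.

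In erythroid cells the gene with the highest ratio by the rule was Fabp5, the fatty acid carrier. It went from 47.9 CPM (35.6 to 63.2) to 1300 CPM (1284 to 1317), a log2 ratio of 4.50. Globin-rich cells of cluster 27 made up 38.7% of the class with JAK2WT and 61.1% with JAK2V617F, and Car1-rich cells of cluster 28 made up 61.3% and 35.4%, so stage differed as well. Inside each cluster Fabp5 had the same direction, at 33.1 and 1492 CPM in cluster 27 (24 and 767 cells) and at 53.9 and 960.2 CPM in cluster 28 (38 and 444 cells). Also highest by the rule were Pim1, Rgcc, a regulator of the cell cycle (2.0), the carboxypeptidase gene Cpd (2.0) and Mthfd2 of mitochondrial folate metabolism (1.92). The lowest were Ifi27, from 120.7 to 32.8 CPM (-1.61), Myb, a factor of immature progenitors (-1.61), Gatm (-1.26), Cmtm7 (-1.16) and the sphingosine kinase gene Sphk1 (-1.07). Myb stood at -0.62 and -1.01 in clusters 27 and 28 and Sphk1 at -0.55 and -0.78, nearer to 0 than in the pooled class. Gatm stood at -0.86 and -1.24 there and Cmtm7 at -1.18 and -0.73, while Ifi27 stood at -1.80 and -1.72.

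Cda and Plek2 were picked out after their values were seen, because the JAK2WT erythroid cells held 0 UMIs of either. Plek2, a pleckstrin protein of the red cell membrane skeleton and a known JAK2-STAT5 target, had 1330 UMIs (73.6 CPM) with JAK2V617F, at least 25.6-fold above the 3-count floor of the JAK2WT class. Cda, cytidine deaminase, had 1638 UMIs (90.7 CPM), at least 31.5-fold. Both were at 0 with JAK2WT in cluster 27 and in cluster 28.

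Globin and heme synthesis genes were above 0 in 14 of 14 (median 0.72), of which the beta globins Hbb-bs (3797 and 9462 CPM, 1.32) and Hbb-bt (2160 and 4682 CPM, 1.11) were at least 2-fold higher. In the globin-rich cluster alone, Hbb-bs was 13069 and 14165 CPM (0.12), and in the Car1-rich cluster 21.6 and 567.5 CPM (4.19). Of 19 genes of erythroid regulators and membrane proteins 14 were above 0 (median 0.31), with Gypc at 0.70, while the water channel gene Aqp1 (-0.45) and carbonic anhydrase Car1 (-0.37) lay lowest. Erythropoietin receptor Epor was 88.2 and 87.4 CPM. The cholesterol synthesis genes Idi1 (1.57) and Fdps (1.44) were higher, with 2 of 4 measured, and the transferrin receptor gene Tfrc went from 497.3 to 993.8 CPM (0.98).

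In GMP the myeloid granule genes split. Lcn2 went from 24.8 to 236.4 CPM (log2 2.82), whereas the calprotectin genes S100a9, from 638.6 to 101.5 CPM (-2.54), and S100a8, from 2018 to 367.3 CPM (-2.43), and the ficolin gene Fcnb (-2.02) were lower. The S100a9 difference lay in cluster 8 (108 and 200 cells), at 1683 and 106.6 CPM (-3.86). In the Prg2- and Prg3-led cluster 10 (247 and 327 cells) S100a9 was 65.4 and 97.0 CPM (0.50). S100a8 stood at -3.66 in cluster 8 and -0.65 in cluster 10, and Lcn2 at 2.83 and 2.82. The 6 measured secondary granule genes had a median of -1.09, with 1 higher and 3 lower, and with no filter on low counts the list's median was 0.0024. Beside them the summed neutrophil markers were 2721 CPM with JAK2WT and 734.1 CPM with JAK2V617F, and the part of mature neutrophil RNA in these values was not tested. Primary granule genes, which mark the promyelocyte stage, stood at 0.05, with Elane at 14322 and 7718 CPM (-0.89) and Ctsc at 1.18. Ly6c2, a surface protein of monocytes and their precursors, went from 1047 to 382.3 CPM (-1.43).

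HSC/MPP held a few named genes at each end. Ms4a3, a marker of granulocyte-monocyte commitment, went from 78.4 to 252.6 CPM (1.57), the metallothionein gene Mt1 from 75.8 to 177.1 (1.12) and the endoplasmic reticulum protein gene Sdf2l1 from 90.2 to 197.6 (1.05). Lower were Dntt, of lymphoid priming, from 177.0 to 49.4 CPM (-1.65), and Hlf, a stem cell regulator, from 178.2 to 65.3 CPM (-1.32). Pf4, the platelet chemokine, was 321.9 and 59.7 CPM (-2.25), with 30.8% of its JAK2WT UMIs in 1 cell. Dntt stood at -2.56 and -1.44 in clusters 4 and 20 but was 26.9 and 73.5 CPM (1.18) in cluster 16, while Hlf lay below 0 and Ms4a3 above it in all 3. These clusters, in the order 4, 16 and 20, held 35.8%, 29.9% and 34.3% of JAK2WT HSC/MPP and 37.1%, 33.1% and 29.8% of JAK2V617F HSC/MPP. The unfolded protein response list was above 0 in 11 of 12 (median 0.44), of which Sdf2l1 was at least 2-fold higher.

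**Figure D3:**
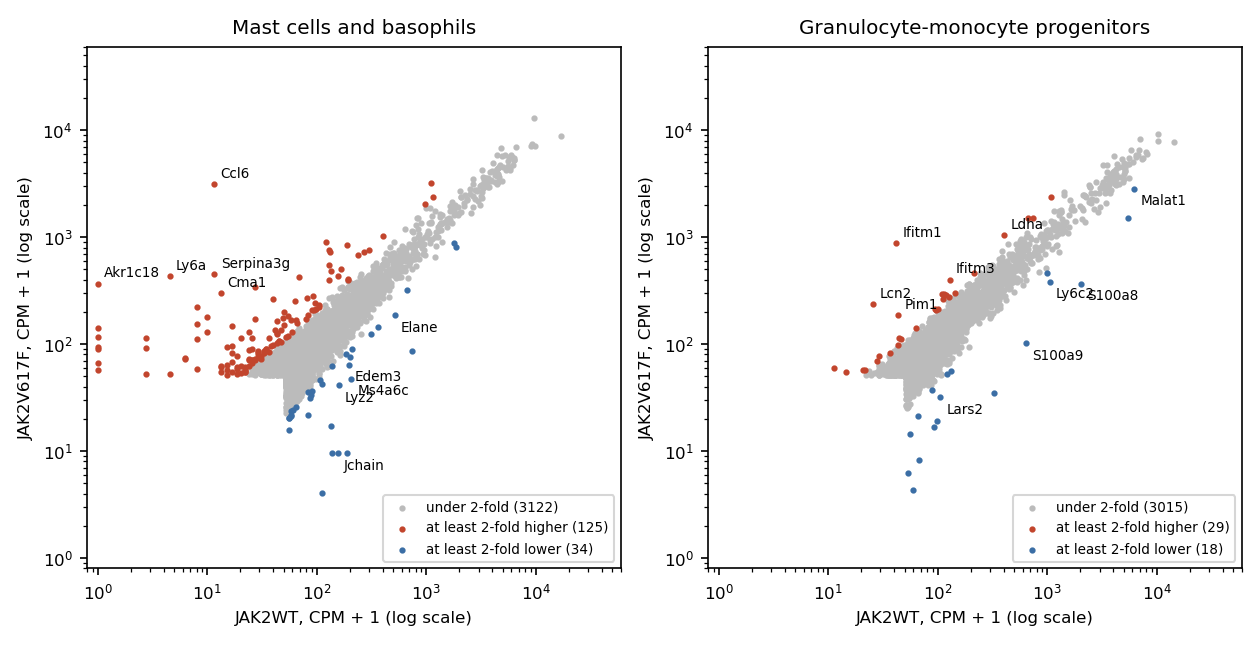
CPM of every measured gene with JAK2WT (x axis) and JAK2V617F (y axis), both with 1 CPM added and on log axes, in mast cells and basophils and in GMP. Red and blue points are at least 2-fold higher and lower, 125 and 34 genes in the first panel and 29 and 18 in the second, and the named genes are labelled.

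Mast cells and basophils (67 and 141 cells, 1 cluster) had higher levels of signalling and effector genes with JAK2V617F. Ccl6 went from 10.6 CPM (3.90 to 23.1) to 3128 CPM (3033 to 3226), a log2 ratio of 7.25, and was found in 6 of 67 and 56 of 141 cells. Ccl6, Akr1c18 and Gzmb are among the 10 genes that set this cluster apart from the others. They may thus have shaped the clustering itself, which was not checked. Akr1c18, a steroid dehydrogenase gene, had 0 and 474 UMIs, at least 69.0-fold higher, with 23% of them in 1 cell. Ly6a, the stem cell antigen Sca-1 (5.03), Serpina3g (4.47) and the chymase gene Cma1 (3.78) followed, and 35.7% of the Cma1 UMIs lay in 1 cell. The chemokine genes Ccl9, Ccl6, Ccl3 and Ccl4, neighbours on chromosome 11 (83572919 to 83664683), were all at least 2-fold higher, but 46.1% of the Ccl4 and 23.7% of the Ccl3 UMIs lay in 1 cell.

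All 14 measured JAK-STAT targets were above 0 in these cells (median 0.97, against 0.03 for all genes), and 5 were at least 2-fold higher. The feedback inhibitors stood first: Socs1 had 1.77 CPM with JAK2WT, which is 1 UMI, and 113.0 CPM with JAK2V617F (3.39), and Cish had 1.77 and 90.6 CPM (3.09). Oncostatin M (Osm), a cytokine that signals through JAK kinases itself, went from 26.6 to 172.6 CPM (2.32). Interferon-stimulated genes were above 0 in 6 of 6 (median 1.5), with Gbp2 at 2.88 and Isg15 at 1.98. Of the effector genes 7 of 19 were higher (median 0.84), including Hdc, which makes histamine, from 187.8 to 848.3 CPM (2.12), granzyme B (Gzmb, 2.03) and the shared receptor chain Csf2rb (1.55), while the basophil proteases Prss34 (-0.48) and Mcpt8 (-0.45) lay lowest. Of 8 measured profibrotic ligands 6 were higher (median 2.06), with Il1b at 0 and 141.6 CPM (91.8% of its UMIs in 1 cell), Spp1 at 7.09 and 223.7 CPM, and Mif lowest at 485.5 and 635.4 CPM (0.38). The lowest genes were Jchain (-3.15), Ms4a6c (-1.93), Lyz2 (-1.74, with 39.3% of its UMIs in 1 cell), Edem3 (-1.48) and Elane (-1.43).

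Neutrophils of cluster 24 (128 and 195 cells) were led by stefin genes, which encode cysteine protease inhibitors. Stfa2 had 0 UMIs with JAK2WT and 829.3 CPM with JAK2V617F, at least 248.4-fold, and Stfa3 went from 2.23 to 417.3 CPM. A run of 7 genes between 36156811 and 36455392 on chromosome 16, Stfa1, Stfa2, Stfa2l1, Stfa3 and 3 predicted genes, was at least 2-fold higher throughout. These copies are close in sequence and the split of reads between them is uncertain. Wfdc17 (4.28) and the endothelial lipase gene Lipg, at 4.12, came next. The MHC class II genes were lowest, with Cd74 at 883.5 and 22.3 CPM (-4.79), and 51.6% of its JAK2WT UMIs were in 1 cell, as were 73.8% for H2-Aa. Immunoglobulin and Jchain RNA summed to 60972 and 5295 CPM in the same cells, and 46.6% of the Jchain UMIs were in 1 cell.

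In monocytes 6 of 7 measured secondary granule genes were higher. S100a9 went from 49.5 to 3376 CPM (5.83), S100a8 from 126.2 to 4143 (4.93), Chil3 from 42.0 to 1059 (4.36) and Lcn2 from 18.4 to 402.4 (3.86). With 52 cells in the JAK2V617F class, single cells weighed heavily, and 23.7% of the S100a9 UMIs and 28.4% of the Chil3 UMIs came from 1 cell. In cluster 3 (622 and 36 cells) S100a9 was 56.4 and 1021 CPM, and in cluster 5 (247 and 16 cells) 35.5 and 18357 CPM. Neutrophil markers summed to 219.5 and 8019 CPM in the class, and their part in these genes was not tested. At the other end stood antigen presentation. Cd74 went from 407.1 to 32.4 CPM (-3.30) and H2-Aa from 187.4 to 11.4 (-3.21), and 5 of 6 MHC class II genes were lower (median -2.57). Ly6d (-2.58) and Cox6a2 (-2.46) were lower too. Conventional dendritic markers summed to 3073 and 1323 CPM and plasmacytoid markers to 415.1 and 122.5 CPM in the class. The MHC class II difference was in cluster 3, with Cd74 at 596.7 and 30.4 CPM, while cluster 5 held 26.4 and 45.1 CPM.

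In NK/ILC the MHC class II genes lay on the higher side. Cd74 went from 826.7 CPM (751.9 to 906.9) to 2848 CPM (2707 to 2995), and H2-Aa from 298.9 to 1006 CPM (1.72), and 5 of 6 genes of the list were higher (median 1.24). The class joins Gata3- and Il7r-rich cells of cluster 0, 79.9% of it with JAK2WT and 60.9% with JAK2V617F, and Klrk1- and Il2rb-rich cells of cluster 13, at 20.1% and 39.1%. Cd74 was higher in both, at 1.22 and 1.15, but by less than in the pooled class. In clusters 0 and 13 H2-Aa stood at 1.39 and 0.96, and H2-Ab1 at 0.63 and 0.31, under 2-fold in both. Of 7 measured interferon-stimulated genes 5 were higher, including Ifi47 (1.63), Gbp2 (1.35), Igtp (1.14) and Irgm1 (1.13). Immediate early genes, which respond to stimulation and to tissue dissociation, were higher in 5 of 13 (median 0.78), with Fos at 734.4 and 1988 CPM and Junb at 625.6 and 1824 CPM.

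The 5 highest NK/ILC genes by the rule were Krt83 (2.11), the phosphatase gene Dusp2 (1.87), the receptor gene Klrb1a (1.81), Ifitm1 and Cd74. Klrb1a was at 0 UMIs in both libraries in cluster 0. The lowest were Jchain, Tox2 (-2.70), Irf8 (-2.55), Stab2 (-2.48) and Slpi (-2.24), and Tox2 was lower in cluster 0 only, at 129.4 CPM and 0 UMIs, against 16.1 and 16.9 CPM in cluster 13. Mitotic genes were below 0 in 5 of 5 (median -1.03), with Mki67 at 110.7 and 24.3 CPM (-1.81). Mki67 was 136.6 and 13.4 CPM in cluster 0 and 24.1 and 38.0 CPM in cluster 13.

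**Figure D4:**
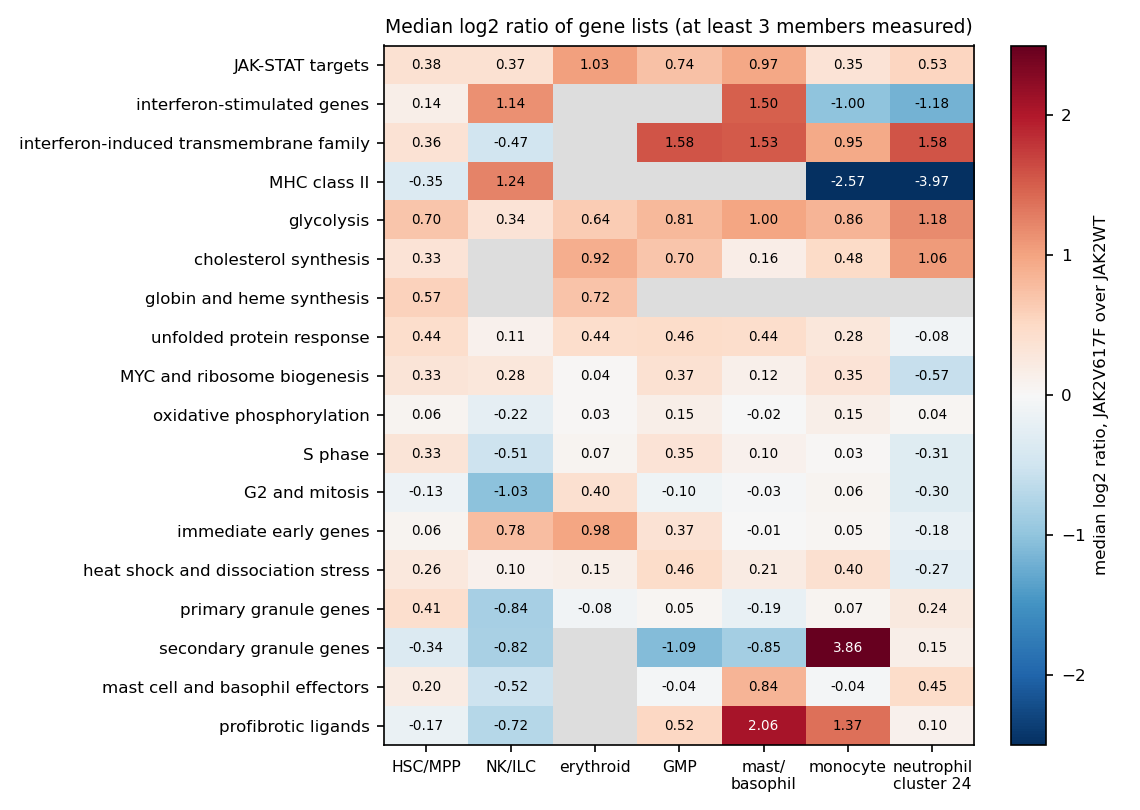
Median log2 ratio (JAK2V617F over JAK2WT) of 18 gene lists in the 7 classes, with neutrophils shown as cluster 24. Grey cells had under 3 members measured. Glycolysis is above 0 in all 7 columns (0.34 to 1.18), and MHC class II is at 1.24 in NK/ILC, -2.57 in monocytes and -3.97 in cluster 24.

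Mesenchymal stromal cells, with 31 and 41 cells, were below the size set for comparison and were added after their counts were seen. Of 1228 measured genes 128 were higher (10.4%) and 91 lower (7.41%). Of 8 measured niche genes, which hold and feed stem cells, 5 were lower (median -1.26) and Spp1, at 4006 and 9306 CPM (1.21, 45.8% of its UMIs in 1 cell), was higher. Cxcl12 went from 7479 to 3299 CPM (-1.18), the stem cell factor gene Kitl from 859.7 to 332.1 (-1.35), Lepr from 619.0 to 228.8 (-1.40) and Vcam1 from 662.0 to 177.1 (-1.84). Adiponectin (Adipoq, 541.6 and 66.4 CPM) and the lipase gene Lpl (1745 and 302.6 CPM) were lower as well, as were Chrdl1 (-5.05) and Esm1 (-2.78). Higher were Prg4, the joint lubricant lubricin, from 283.7 to 3439 CPM (3.55), Cilp (0 and 61 UMIs, at least 17.5-fold), Penk (4.21), Ifi207 (3.22) and Cygb (2.89). Between 11.5% and 31.3% of the UMIs of these 5 genes lay in 1 cell. TGF-beta response genes were higher in 4 of 7, with Ctgf at 197.7 and 649.5 CPM. Collagen and matrix genes split, with Col1a1 at 3138 and 1225 CPM (-1.35, 79.2% of its JAK2WT UMIs in 1 cell) and Col12a1 at 51.6 and 442.8 CPM (2.88), for a median of 0.12. The summed stromal markers themselves were 25429 and 12967 CPM.

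The Gli1 knockout libraries carried the same pair of transductions and share no library with this pair. Of the genes higher in wild type marrow, 12 of 12 in HSC/MPP, 54 of 57 in erythroid cells, 25 of 29 in GMP, 115 of 125 in mast cells and basophils, 50 of 52 in monocytes and 100 of 105 in cluster 24 were above 0, beside 58.7%, 51.4%, 61.5%, 55.2%, 61.1% and 49.2% of all genes measured. NK/ILC were the exception, with 75 of 144 above 0 (52.1%) beside 48.2% of all genes. At least 2-fold higher in the knockout pair too were 0 of 12 in HSC/MPP, 1 of 29 in GMP, 3 of 144 in NK/ILC, 18 of 57 in erythroid cells, 31 of 125 in mast cells and basophils, 20 of 52 in monocytes and 52 of 105 in cluster 24. Of the lower genes, 6 of 17, 3 of 18, 6 of 122, 12 of 17, 4 of 34, 6 of 49 and 29 of 73 were at least 2-fold lower there, in the same order. The share of all measured genes past 2-fold in the knockout pair is not given here, so these counts have no background. In cluster 24 the knockout pair held 28 cells with JAK2WT, below the size set for comparing a class, and 257 with JAK2V617F. Its erythroid cells numbered 49 and 52. The genes had been chosen by their wild type values, and their knockout values were smaller: the median of the higher genes was 0.34 in GMP in the knockout pair and 1.15 in wild type, and 0.75 and 1.26 in erythroid cells. Ifitm1 in GMP was 85.3 and 432.4 CPM in the knockout pair, but in mast cells and basophils it was 2941 and 3135 CPM there. In each remaining class Ifitm1 was also higher with JAK2V617F in the knockout pair. Whether the pairs differ could not be tested with 1 library per group.

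**Figure D5:**
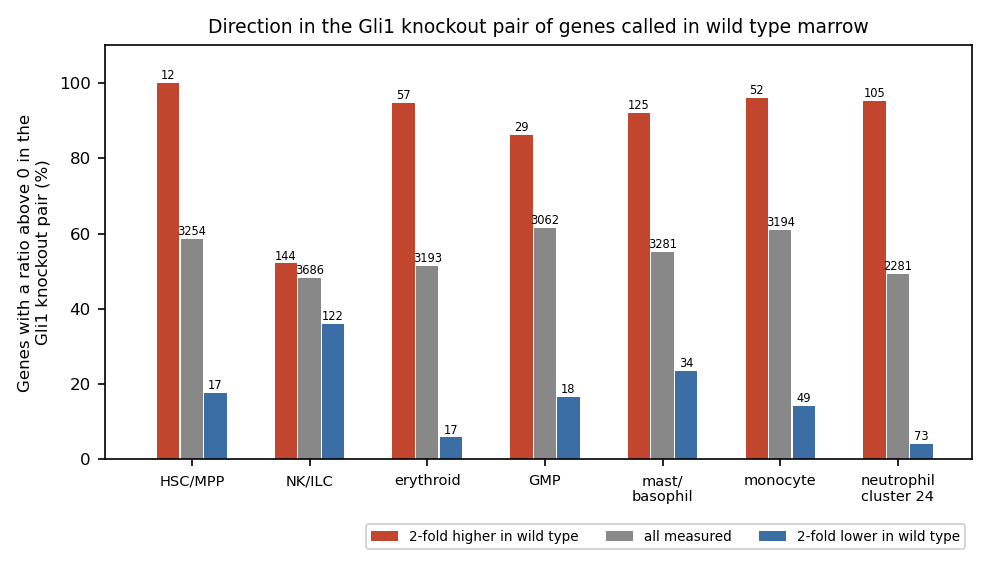
Percent of genes with a log2 ratio above 0 (JAK2V617F over JAK2WT) in the Gli1 knockout pair, for genes at least 2-fold higher (red) or lower (blue) in wild type marrow and for all measured genes (grey). Numbers over the bars are genes. The red bar is at 52.1% in NK/ILC and between 86.2% and 100% in the other classes.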

How the data were processed

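Single-cell 3' gene expression was measured in 4 libraries of lineage-depleted mouse marrow, of which the 2 wild type ones are compared. The values as deposited by the authors are unnormalized UMI counts of each gene in each barcode, in sparse matrices. Per the submitters' processing notes the tools were Cell Ranger 4.0.0 and Seurat 4.0.4 and the build mm10, with no role or order given. Of 31054 features, 30934 matched GENCODE M21 by gene ID, which gave the coordinates, and 0 columns lacked a sample.

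Groups were taken from the sample titles. Cells had at least 500 genes and 1000 UMIs and under 10% mitochondrial UMIs. Doublets were scored against simulated ones within each library and removed at 0.8% of cells per 1000 barcodes. The 4 libraries were clustered together with no batch correction (scanpy 1.11.5, 2000 variable genes, 30 components, 15 neighbours, Leiden resolution 1.0, 33 clusters). Clusters were named from 17 marker sets by a score rule set after the clusters had been seen. The comparison and the 28 gene lists were chosen with earlier results of these data known.

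UMIs were summed per library and class and scaled to CPM. Intervals are exact Poisson intervals for CPM and exact binomial (Clopper-Pearson) intervals for shares, all at 95%. They cover counting error only, since each group is 1 pool, and the class depth behind them was 534688 to 18066154 UMIs in the 7 matched classes. A fold change is log2 of CPM plus 10 over CPM plus 10, which understates the change of low genes. A fold against 0 UMIs is a bound from a floor of 3 counts per library and class. The comparison script was tested on simulated data. Named genes were the 5 highest and 5 lowest ratios of a class with at least 100 CPM and 30 UMIs in at least 10 cells, and the 8 highest and lowest medians over at least 5 classes of one sign. Predicted, mitochondrial, ribosomal protein, haemoglobin, immunoglobulin and receptor segment genes were not eligible. The 2 highest and 2 lowest members of each list quoted were added. Promoters came from RefSeq (GRCm38.p6). Alternatives changed the prior CPM, the gene filter, the scaling, the depth per cell, the cell filter, the doublet step and the clustering. The tagging libraries that trace cells to mice were not analysed here. Values of some list members are not reported here.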

Additional observations from a re-analysis of the deposited data

How the results depend on the processing

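No paired analysis was possible because each group is 1 library. Of 132 alternative counts of genes, 77 were within 1.5 times the reported count. Genes at least 2-fold apart in HSC/MPP, 29 as reported, numbered 49 with 1 CPM added, 12 with 50 CPM added, 49 with no filter beyond 1 UMI, 8 at 200 CPM or more, 152 with cells thinned to 1000 UMIs and 56 with the 2 wild type libraries clustered alone. In NK/ILC, 266 as reported, they numbered 71 with 50 CPM added, 651 with no filter, 64 at 200 CPM or more, and 400 with totals that left out haemoglobin, immunoglobulin, mitochondrial and ribosomal protein genes. In erythroid cells, 74 as reported, they numbered 118 and 27 with 1 and 50 CPM added, 157 with no filter, 16 at 200 CPM or more, 114 with the reduced totals (75 higher, 39 lower) and 369 when thinned. In GMP, 47 as reported, they numbered 87 and 21 with 1 and 50 CPM added, 24 at 200 CPM or more, 188 when thinned, 71 at resolution 1.5 and 122 with the pair clustered alone. In mast cells and basophils, 159 as reported, they numbered 70 with 50 CPM added, 368 with no filter, 45 at 200 CPM or more, 242 by the mean of single-cell CPM and 103 at resolution 1.5. In monocytes, 101 as reported, they numbered 48, 205, 32 and 237 under those first 4 settings, and 550 when thinned. In neutrophils, 729 as reported, they numbered 315 with 50 CPM added, 1169 with no filter, 290 at 200 CPM or more, 210 under the stricter cell filter (1000 genes, 2000 UMIs, under 5% mitochondrial), 165 with doublets kept, 203 and 178 at resolutions 0.6 and 1.5, 186 with the pair clustered alone, and 178 in cluster 24 alone. Genes higher in at least 3 classes, 22 as reported, numbered 35 and 11 with 1 and 50 CPM added, 50 with no filter and 10 at 200 CPM or more. Genes lower in at least 3, 17 as reported, numbered 10 with 50 CPM added, 38 with no filter, 7 at 200 CPM or more and 27 with the reduced totals. The causes of these shifts were not tested, except that a larger added CPM or a stricter gene filter leaves fewer genes to call by construction.

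The share ratios kept their direction in 65 of 66 alternatives. Under the stricter cell filter the ratio was 3.12 for HSC/MPP, 0.0400 for conventional dendritic cells, 30.5 for erythroid cells, 1.72 for GMP, 0.797 for monocytes and 2.77 for neutrophils. With doublets kept it was 2.33 for GMP and 2.81 for neutrophils. At resolution 0.6 it was 2.04 for GMP, 0.176 for monocytes and 2.60 for neutrophils, and at 1.5 it was 2.04, 0.840 and 3.19. With the pair clustered alone it was 3.29 for HSC/MPP, 2.51 for GMP, 0.0801 for monocytes and 3.51 for neutrophils. Among myeloid, erythroid, HSC/MPP and mast cells only, it was 1.38 for HSC/MPP, 14.04 for erythroid cells, 1.03 for GMP, 1.46 for mast cells and basophils, 0.0415 for monocytes and 0.498, the opposite direction, for neutrophils. The share of cells with a GFP UMI was 0.139% with JAK2WT and 0.233% with JAK2V617F after thinning.

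List medians were counted as reversed in 15 of 1628 alternatives, and a shift above 0.25 counted as a move. A sign change of a median that was reported near 0 was not counted as reversed. The number of list medians that kept their sign is therefore not given. With no filter on low counts the median turned to 0.126 for mast effectors in NK/ILC, 0.0024 for secondary granule genes in GMP and -0.0090 for profibrotic ligands in monocytes. In neutrophils, at resolution 1.5 and with the pair clustered alone, it turned to 0.244 and 0.248 for primary granule genes, -0.086 and -0.147 for erythroid regulators, 0.0427 and 0.0581 for oxidative phosphorylation, and -0.182 and -0.209 for immediate early genes. With doublets kept it turned in neutrophils to 0.109 for oxidative phosphorylation, 0.0551 for MYC and ribosome biogenesis, 0.263 for heat shock and 0.0884 for the unfolded protein response, and the log2 ratio of Mif to 0.149. A single gene counted as reversed only where its reported log2 ratio lay at least 1 from 0. By that rule 1 of 2128 alternatives was reversed, and sign changes of smaller ratios were not counted. Cluster 24 alone, single clusters and stromal cells were chosen after seeing the data, and classes with under 40 cells under a setting gave no value there.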

Other observations

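An unnamed progenitor cluster, left out of the 7 classes because its markers were split between granulocyte-monocyte progenitors and monocytes, was larger with JAK2V617F. Its leading genes were the chemokine receptor gene Ccr2, the protease gene Ctsc and Dmkn. It held 80 cells with JAK2WT (1.11%, 0.882 to 1.38) and 194 with JAK2V617F (5.65%, 4.90 to 6.48), a ratio of 5.08 (3.93 to 6.58). Of 3256 measured genes 121 were at least 2-fold higher and 98 lower. Within the cluster Ifitm1 was 190.6 and 1439 CPM, Lcn2 16.6 and 173.9 CPM, and the haptoglobin gene Hp 58.0 and 428.7 CPM. Ms4a3, the gene of granulocyte-monocyte commitment, was 306.6 and 1264 CPM, while the stem cell ligand gene Angpt1 was 106.5 and 21.3 CPM and Apoe 65.1 and 10.3 CPM. These genes were picked out after their values were seen.

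A second unnamed cluster, led by Dntt, Flt3 and Irf8, which are genes of lymphoid and dendritic priming, was smaller with JAK2V617F. It held 271 cells (3.77%) and 17 cells (0.495%), a ratio of 0.132 (0.0807 to 0.214).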
